A study of Mus musculus with 31 samples.

Results

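Tumours grown under the skin from AB1-mCherry, a murine mesothelioma line, were sequenced in a pair of forms, as whole tissue and as cancer cells sorted out of the tumour, and the levels of each gene in the 5 whole tumours were set beside those in the 5 sorted samples. These 10 libraries are part of 31. All came from untreated female BALB/c mice of 12 weeks, and tumours were taken 10 days after inoculation. Labels name the same 5 mice for the whole tumours and the sorted samples. The other 21 libraries are the same kinds of sample from the peritoneal site (5 whole, 5 sorted) and the pleural site (6 whole, 5 sorted), and serve only for the site contrasts near the end. AB1 was raised from an asbestos-induced mesothelioma of BALB/c mice, so the graft and its host share a strain. Before grafting, the mCherry-bearing line was enriched by keeping its brightest cells and expanding them, so all tumours derive from that pool. Sorted cells are those without the leukocyte surface protein CD45 and with the red fluorescent protein mCherry.

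The question is which transcripts belong to the host cells of the tumour and which to the cancer cells. The design also separates the kinds of sample in handling. Whole tumours went into RNAprotect as tissue and their RNA was purified with the RNeasy Plus Mini kit, whereas sorted cells passed through dissociation and flow sorting, and their RNA through the RNeasy Plus Micro kit. Cell content, handling and kit cannot be told apart by this comparison, so only large differences are read. Each table was rescaled so that the 12141 genes listed in both sum to 1000000, in TPM (a share of all transcripts corrected for length). A gene was called far higher in one kind of sample where the group means of log2(TPM + 1) differed by at least 2, roughly 4-fold for well expressed genes, and the 5 whole and 5 sorted libraries did not overlap. No test was run across the tables, because they were normalized separately. Library values below are in rescaled TPM in the order of replicates 1 to 5, and a difference is the whole tumour mean minus the sorted mean on the log2(TPM + 1) scale, with its standard error (SE) from the spread between libraries.

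A solid tumour holds cancer cells, blood vessels, fibroblasts, macrophages and lymphocytes, all of which contribute RNA to a whole-tissue library. Macrophages in such tissue are known for high transcripts of lysozyme, complement C1q and MHC class II, the molecules that present peptides to helper T cells. Mesothelioma cells often keep mesothelin and have a mesenchymal character, so that collagen and other matrix genes are not specific to fibroblasts. Immediate early genes such as Fos and Egr1 are switched on within minutes by growth factors or stress and need no new protein, and heat shock and NF-kB target genes are other fast responders. Tissue dissociation at warm temperature is known to switch on these fast genes.

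The CD45 gene itself, Ptprc, first checked the sort. Whole tumours had 49.9, 41.8, 58.6, 76.8 and 69.5 TPM and sorted samples 13.2, 7.65, 0.348, 1.61 and 0.233 TPM, a difference of 4.07 (SE 0.73). The groups did not overlap, but sorted replicates 1 and 2 held more Ptprc than the other sorted samples, and leukocyte results are therefore also given without those 2. No entry for the mCherry transgene was analysed here. Shared genes held 96.8 to 97.1% of the deposited TPM in the whole tumours and 97.7 to 97.8% in the sorted samples, and 11831 to 11902 and 11658 to 11932 of them reached 1 TPM. Read numbers are not given with TPM, so the depth behind each value is unknown.

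Of 12002 genes compared, 338 were far higher in whole tumours (2.82%) and 57 in sorted cells (0.475%). Most genes lay close together, with 10741 (89.5%) within 1 log2 unit and a median difference of 0.24 (quartiles -0.02 and 0.53). The groups failed to overlap for 4515 genes higher in whole tumours (37.6%) and 880 higher in sorted cells (7.33%), mostly by small amounts. The last genes inside the threshold differed by 2.00 and -2.05 and the first outside it by 1.99 and -1.99, and 15 further genes passed 2 log2 units with overlapping libraries. Without sorted replicates 1 and 2 the counts were 415 and 70. Median-of-ratios scaling moved the median of all genes from 0.24 to -0.0015, so differences below are best read against 0.24.

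**Figure D1:**
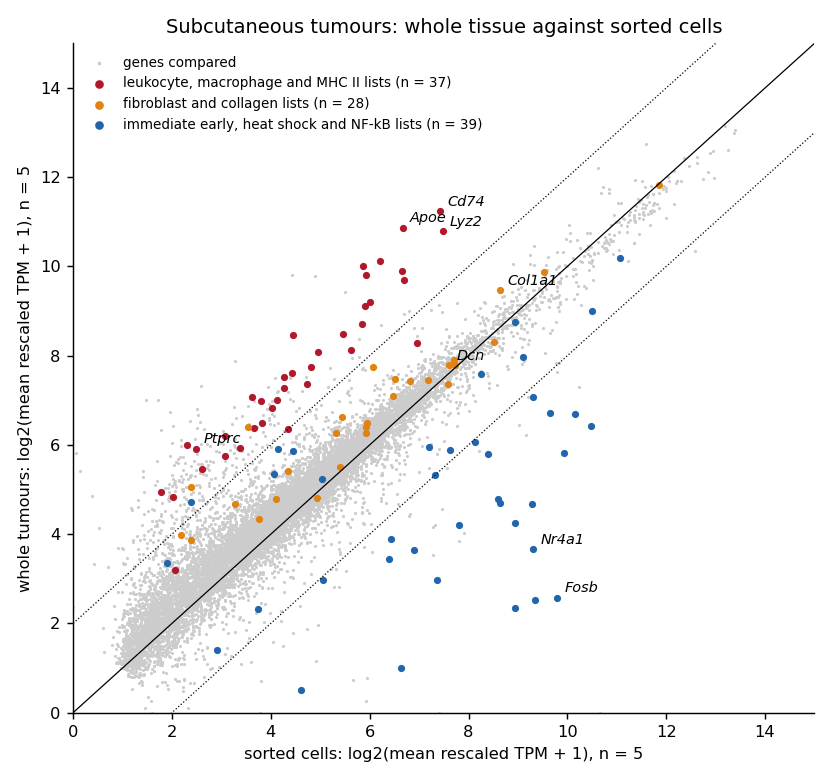
Mean level of each of the 12002 compared genes in 5 whole tumours (vertical axis) against 5 sorted samples (horizontal axis), both as log2(mean rescaled TPM + 1); dotted lines mark a 4-fold ratio. Leukocyte, macrophage and MHC class II genes (red) lie above the upper dotted line with few exceptions, fibroblast and collagen genes (orange) lie near the diagonal or above it, and most immediate early, heat shock and NF-kB genes (blue) lie below the diagonal.

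Host leukocyte genes were higher in whole tumours. Of 211 genes on the host cell lists 90 were listed in both tables. Of these, 57 were far higher in whole tumours (2.82% of all genes were) and 0 in sorted cells (0.475% of all genes). The macrophage and monocyte list led, with all 18 listed members far higher in whole tumours and a median difference of 4.07, against 0.24 over all genes. Of the other lists, pan-leukocyte genes had 11 of 12 (median 3.64) and MHC class II genes 6 of 7 (median 4.82). Without sorted replicates 1 and 2 these counts were 18, 11 and 7.

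Apolipoprotein E, a lipid carrier that macrophages secrete, had the highest difference of the listed genes on any list. Apoe measured 1188, 2439, 1560.0, 2260.2 and 1897 TPM in whole tumours and 284, 156, 13.3, 45.1 and 5.54 TPM in sorted samples, a difference of 5.32 (SE 1.04). Every whole tumour stood above every sorted sample, and among the sorted samples replicates 1 and 2 were the highest and replicate 5 the lowest. Lyz2, which encodes the lysozyme of myeloid cells, measured 1082, 1843, 1729, 2138 and 2091 TPM against 440.0, 337, 17.4, 82.2 and 8.42 TPM (4.56, SE 1.12). C1qa, a chain of complement C1q made by tissue macrophages, measured 838, 899, 912, 1045 and 1067 TPM against 272, 178, 7.65, 38.2 and 4.92 TPM (4.58, SE 1.12). Both genes repeat the order of the sorted samples seen for Apoe. The receptor for the macrophage growth factor, Csf1r, measured 165 ± 17.2 TPM (mean ± SD, n = 5) in whole tumours and 25.5 ± 30.9 TPM in sorted samples (3.81). Ccr2, the receptor that brings monocytes into tissue, differed by 4.31, and Spi1, encoding the myeloid transcription factor PU.1, by 3.95.

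MHC class II and its chaperone were among the most abundant host transcripts. Cd74, the invariant chain, measured 1815, 2083, 2418, 2763 and 2949 TPM in whole tumours and 438, 285, 17.7, 99.3 and 16.6 TPM in sorted samples (4.82, SE 0.97). H2-Ab1, a chain of the peptide-binding dimer, measured 623, 744, 926, 1081 and 1139 TPM against 154, 96, 6.93, 35.6 and 4.58 TPM (4.88, SE 0.97). The sorted samples covered a wide range for both, from 4.58 to 154 TPM for H2-Ab1, and stayed below all whole tumours. The leukocyte glycoprotein gene Cd52 differed by 5.07, the actin regulator Coro1a by 4.08 and the lysosomal Laptm5 by 4.16. Arhgdib was the pan-leukocyte gene that fell short of the threshold, at 313 TPM against 124 TPM (1.33).

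Outside these lists the acute phase gene Saa3 had 40.8, 227, 87.1, 103 and 175 TPM in whole tumours and 1.8, 1.64, 1.11, 2.77 and 1.59 TPM in sorted samples (5.32, SE 0.45), and no sorted sample passed 3 TPM. The macrophage chemokine Ccl6 measured 110.0 ± 47.4 against 4.68 ± 4.87 TPM (4.70). Checkpoint genes divided. Vsir, which encodes the inhibitory receptor VISTA of myeloid cells, differed by 3.71 and the T cell inhibitory receptor Lag3 by 2.55, whereas Cd274, encoding PD-L1, measured 17.1 ± 4.47 against 11.3 ± 4.2 TPM (0.58) with overlapping groups.

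The promoter of Ctss, a macrophage list gene that encodes the lysosomal protease cathepsin S and differed by 4.35, is shown because it holds the letters bound by PU.1. The search used GAGGAAGT on both strands in RefSeq windows from 250 bases before to 50 bases after each start site (build GRCm38.p6). The capitals below mark the match, on the opposite strand and starting 2 bases before the start site.
Ctss, chr3:95526636-95526791, plus strand: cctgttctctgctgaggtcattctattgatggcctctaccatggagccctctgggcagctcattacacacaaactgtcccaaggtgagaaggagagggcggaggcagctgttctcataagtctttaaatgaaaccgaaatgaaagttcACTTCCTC
The letters stood in the windows of 27 of the 206 far higher in whole tumours that had one (13.1%), of 3 of 15 macrophage list genes (20.0%), of 3.56% of the compared genes and of 3.69% of all 27025 genes with a window. A match describes the sequence only.

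Lymphocyte, natural killer and mast cell genes were measured almost entirely in whole tumours, because the sorted table does not list them. Its entries all average at least 1 TPM over the 15 sorted samples of the 3 sites, so a gene known to its annotation and not listed averaged less than that. Values of unlisted genes are TPM as deposited. Of the 14 T cell genes only Lck, the kinase of the T cell receptor, was listed in both, at 24.4, 20.5, 25.4, 31.5 and 29.4 TPM in whole tumours and 5.2, 6.17, 4.58, 5.89 and 3.71 TPM in sorted samples (2.16, SE 0.15). Unlike the macrophage genes, Lck was level across the 5 sorted samples. T cell receptor genes reached 37.5 TPM for Trac and 27.8 TPM for Cd3g in whole tumours, and Cd3e measured 13.3, 11.5, 17.8, 22.7 and 18.4 TPM there. Of 10 natural killer and cytotoxic granule genes only the chemokine Ccl5 was listed in both (44.2, 87.7, 87.5, 101 and 90.3 against 7.73, 6.33, 3.27, 4.49 and 1.7 TPM, 3.93). The granule genes Nkg7 and Gzma averaged 33.7 and 31.7 TPM in whole tumours. None of the 9 mast cell and eosinophil genes was listed for sorted cells, while the mast cell proteases Tpsb2 and Cma1 averaged 43.6 and 30.2 TPM in whole tumours.

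Antibody transcripts were high in whole tumours, with Igkc at 15.3, 45.7, 28.2, 52.3 and 66.6 TPM against 0.121, 0, 0.371, 0 and 0 TPM (5.13) and Ighm at 53.5, 28.3, 38.3, 63 and 58.2 against 8.41, 5.33, 0.482, 1.54 and 0.332 TPM (3.92). For Igkc the sorted samples had less than 1 TPM throughout. The B cell surface gene Ms4a1 was near 0 in whole tumours as well, at 0.291 TPM. The B cell receptor subunit Cd79a went against its list and was higher in sorted samples, at 11.2, 12.5, 11.7, 8.89 and 10.3 TPM, than in whole tumours, at 8.94, 7.7, 7.4, 7.94 and 8.66 TPM (-0.38), with overlap through sorted replicate 4. The checkpoint receptor gene Tigit, textbook for T and natural killer cells, had overlapping groups, at 20.6 ± 2.69 and 20.0 ± 4.81 TPM (0.06). Neutrophil calprotectin genes were low but one-sided, with S100a9 at 17.6, 42.9, 21.7, 24.6 and 32.6 TPM against 0.257, 0.642, 0, 0.573 and 0 TPM (4.44).

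How much host RNA remained in each sorted sample was expressed as the summed TPM of a list in percent of the same mouse's whole tumour, for mice 1 to 5. The macrophage list stood at 34.1, 17.7, 1.11, 3.71 and 0.568%, the MHC class II list at 24.3, 13.3, 0.786, 3.46 and 0.607% and the pan-leukocyte list at 30.4, 28.6, 8.45, 9.37 and 6.27%. Sorted replicates 1 and 2 thus carried at least 13% for each, and replicates 3, 4 and 5 less than 10%. Endothelial genes remained at 34.8, 17.7, 19.1, 21.9 and 24.1%, with no such split between the samples. Fibroblast list genes stood at 113, 58.4, 85.6, 55.5 and 56.5% and collagens at 121, 86.2, 118, 60.8 and 70.2%. In bulk RNA, fewer cells of a type and less RNA per cell cannot be told apart. For the fibroblast and collagen lists any transcripts made by the cancer cells would count in both samples. Which cells made them was not tested. Of the 57 host list genes far higher in whole tumours, 46 had their highest sorted value in replicate 1, and of all 338 such genes 255 did. The count over all compared genes is not given here, so these shares are not read as particular to host genes.

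**Figure D2:**
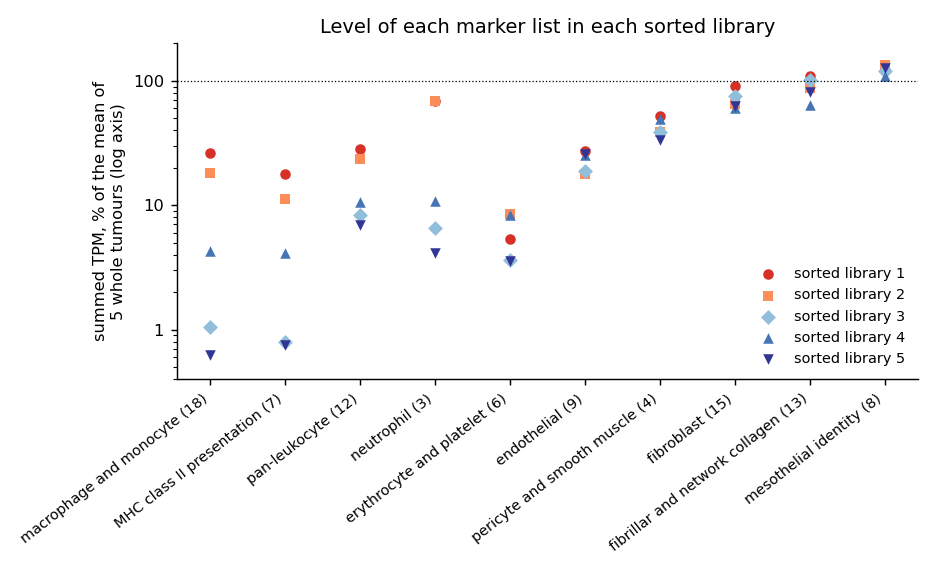
Summed rescaled TPM of 10 marker lists in each of the 5 sorted libraries, in percent of the mean over the 5 whole tumours (log axis; the number of genes follows each list's name). For macrophage genes libraries 1 and 2 stand at 26.4 and 18.2% and libraries 3 to 5 between 0.624 and 4.30%, whereas endothelial genes lie between 17.9 and 27.2% in all 5.

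Vessel genes were higher in whole tumours by less than leukocyte genes. All 9 listed endothelial genes had groups that did not overlap, as did 37.6% of all genes on that side. Of the 9, 4 were far higher (2.82% of all genes were), and the median difference was 1.90. The count depends on scaling: 2 were far higher under median-of-ratios scaling (median 1.66) and 0 under quantile normalization (median 1.52). Pecam1, the junction protein CD31, measured 25.4, 34.3, 32, 40.2 and 35.2 TPM in whole tumours and 8.27, 4.7, 5.84, 7.34 and 7.4 TPM in sorted samples (2.16, SE 0.16). Plvap, a diaphragm protein of fenestrated capillaries, differed by 2.26, and Eng, a TGF-beta co-receptor, by 2.40. The sorted samples formed a narrow band for Pecam1, from 4.70 to 8.27 TPM. Of the pericyte and smooth muscle genes 4 of 12 were listed and none was far higher: Acta2 measured 17.9 ± 4.42 against 6.28 ± 3.2 TPM (1.44) and Pdgfrb 20.7 ± 1.24 against 13.5 ± 4.73 TPM (0.63).

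Several blood, fat and muscle genes were also higher in whole tumours. Haemoglobin Hbb-bs measured 33.3, 79.6, 106, 94.9 and 146 TPM against 2.81, 5.35, 2.88, 6.64 and 2.94 TPM (4.10), and the platelet chemokine Pf4, which macrophages express too, 21.9, 102, 39.5, 54.7 and 47.8 against 7.5, 5.2, 0.106, 1.34 and 0.191 TPM (4.12). The other globin gene named by the same rule, Hba-a1, differed by 3.95. Globin genes include near-identical copies, so the split of reads between them is uncertain. Of 3 listed adipocyte genes Lpl (2.53) and Fabp4 (2.32), both also made by macrophages, were far higher, whereas Pparg, the fat cell transcription factor, averaged 6.53 against 7.06 TPM (-0.10). The fat cell hormone Adipoq averaged 5.38 TPM in whole tumours and was not listed for sorted cells. Skeletal muscle genes varied widely between tumours. Acta1, the actin of skeletal muscle, measured 191, 411, 19, 144 and 147 TPM in whole tumours, lowest in replicate 3 and highest in replicate 2, and was not listed for sorted cells. The myosin light chain Mylpf was also lowest in replicate 3 and highest in replicate 2, at 60.0, 144, 9.93, 69.9 and 42.8 TPM against 4.4, 3.97, 2.36, 1.9 and 2.41 TPM (3.67). Keratinocyte keratin Krt14 was listed at 0 in every whole tumour.

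Fibroblast genes did not behave as a block. Of 15 listed members 2 were far higher in whole tumours (3 without sorted replicates 1 and 2), as were 2.82% of all genes. The median difference was 0.95. Cxcl12, the stromal chemokine that binds CXCR4, measured 35.1, 114, 69.5, 95.6 and 105 TPM against 18, 6.54, 9.87, 10.8 and 7.68 TPM (2.84, SE 0.38), and Pi16, a marker of adventitial fibroblasts, 18.1, 39.3, 20.7, 36.2 and 47.7 against 6.68, 3.5, 3.63, 3.26 and 3.87 TPM (2.63). Whole tumour replicate 1 was the lowest whole tumour for both. At the other end decorin, Dcn, a collagen-binding proteoglycan used as a fibroblast marker, measured 159, 270.2, 177, 239 and 253 TPM in whole tumours and 252, 196, 197, 139 and 184 TPM in sorted samples (0.18, SE 0.20; -0.09 under median-of-ratios scaling). Its groups overlapped, as did those of the PDGF receptor gene Pdgfra (19.4 ± 3.9 against 12.5 ± 3.66 TPM). Serpinf1 and Islr had slightly higher means in sorted samples (-0.20 and -0.09).

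Matrix genes were close to equal. None of 13 collagen genes and none of 17 other matrix genes was far higher on either side. The collagen median was 0.49, and the median of the other matrix genes was 0.16 and turned to -0.10 under median-of-ratios scaling. Col3a1, the most abundant collagen, averaged 3651 ± 427 TPM in whole tumours and 3685 ± 754 TPM in sorted samples (0.01, SE 0.16). Col1a1 measured 513, 764, 604, 776 and 887 TPM against 553, 332, 443, 329 and 335 TPM (0.84). Replicate 1 was the lowest whole tumour and the highest sorted sample for Col1a1, and there the groups overlapped. Fibronectin, Fn1, was higher in every sorted sample (1473, 1231, 1216, 1008 and 973 TPM) than in any whole tumour (804, 732, 760.0, 710.1 and 775 TPM), though by less than 4-fold (-0.63). The matricellular genes Postn and Tnc, whose products shape cell adhesion, differed by 1.07 and 1.10, with overlap in sorted replicate 1 for both.

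Complement genes were a separate matter, with 6 of 10 listed members far higher in whole tumours (2.82% of all genes were) and a median of 2.21. The count was 5 under median-of-ratios scaling and 4 under quantile normalization. Properdin, Cfp, a leukocyte product that stabilises the alternative pathway enzyme, differed by 3.83, factor B (Cfb) by 3.01 and the central component C3 by 2.96. C3 measured 40.3, 132, 97.4, 124 and 156 TPM against 27, 20.0, 6.09, 14.2 and 4.91 TPM. Whole tumour replicate 1 was far below the other whole tumours for C3 and still above all sorted samples. C2 had like means (23.2 and 20.5 TPM). Among proteases, Mmp9 averaged 503 ± 179 against 174 ± 186 TPM, and its sorted values of 377, 377, 36, 58.6 and 22.6 TPM overlapped the whole tumours only through replicates 1 and 2.

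**Figure D3:**
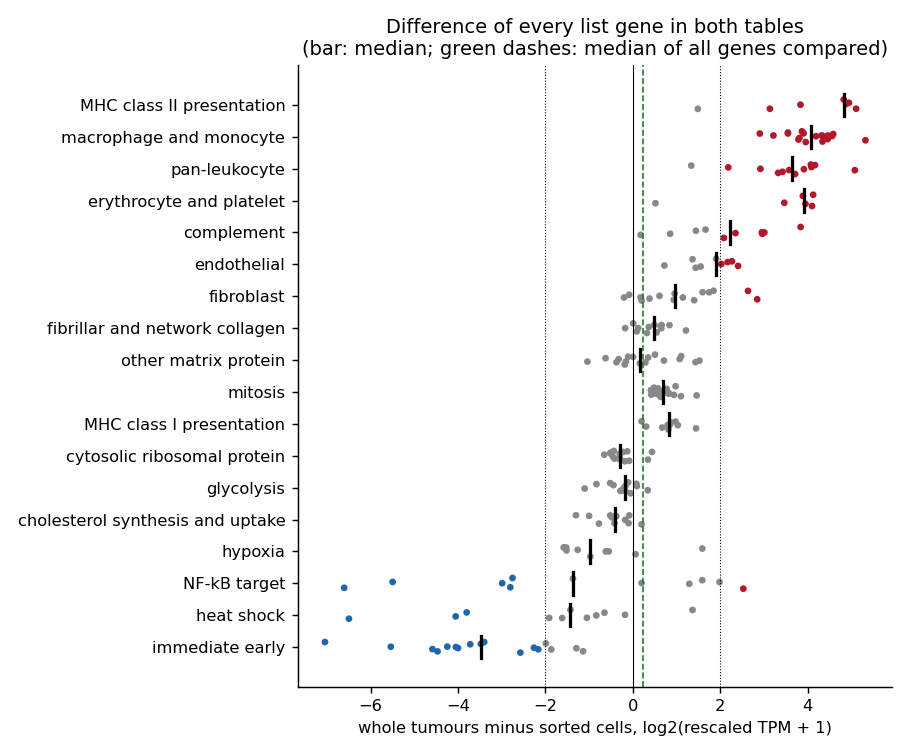
Whole tumour minus sorted difference of log2(rescaled TPM + 1) for every gene of 18 lists that both tables list; black bars are list medians, the green dashed line is the median of all compared genes (0.24), and red and blue points are genes far higher on the whole tumour and sorted sides. Medians run from 4.82 for MHC class II to -3.48 for immediate early genes; that of other matrix proteins, 0.16, is negative under median-of-ratios and quantile scaling.

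Genes of the cancer cells' own identity were read for what the sort retained. Mesothelin, Msln, the surface protein of mesothelioma, measured 193, 209.6, 223, 245 and 201 TPM in whole tumours and 153, 193, 161, 182 and 161 TPM in sorted samples (0.33, SE 0.09); the lowest whole tumour, replicate 1, and the highest sorted sample, replicate 2, were just apart. The transcription factor genes Gata4 (-0.39) and Tbx18 (0.09) were expressed in both kinds of sample. Classical mesothelial markers were low even in whole tumours, with Wt1 at 0.446, 0.62, 0.723, 0.638 and 1.21 TPM and Krt19 below 1 TPM throughout. Muc16 was listed at 0 in every whole tumour. Keratin 8 was the exception: Krt8 measured 24.8, 59.3, 32.4, 32.7 and 55 TPM in sorted samples and 1.49, 7.44, 8.18, 6 and 7.04 TPM in whole tumours (-2.63, SE 0.42), without overlap, while its partner Krt18 stayed at or below 1.15 TPM in all 10.

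Tumour suppressor genes of mesothelioma were near equal where listed, with 0 of 8 far higher on either side. Nf2 averaged 49 ± 2.23 TPM in whole tumours and 43.5 ± 3.01 TPM in sorted samples, and Bap1 34.2 ± 2.54 and 26.8 ± 2.66 TPM. Cdkn2a, at 0.86, 0.537, 0.906, 0.841 and 0.812 TPM in whole tumours, its neighbour Cdkn2b at 0.912 TPM and Mtap at 8.19 TPM were not listed for sorted cells. The X-inactivation transcript Xist measured 24, 15, 28.4, 35.3 and 22.5 TPM in whole tumours of these female mice and was not listed for sorted cells, while the 4 Y-linked genes looked at averaged at most 0.111 TPM in whole tumours and were not listed either.

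Programmes of growth and metabolism differed little. None of 18 mitosis genes passed the threshold, although 17 were higher in every whole tumour than in any sorted sample, against 37.6% of all genes (list median 0.69). DNA replication genes had a median of 0.39, with Mcm2 at 84.9 ± 4.56 against 61.6 ± 6.46 TPM. Glycolysis (median -0.19), cholesterol synthesis and uptake (-0.42) and amino acid transport and stress response genes (-0.55) leaned to the sorted side, again with none past the threshold. Hypoxia genes had the lowest median of these lists, -0.97. Vegfa, the vessel growth factor, measured 95.9, 70.1, 80.8, 133 and 108 TPM in sorted samples and 30.0, 36, 49, 41.1 and 41.9 TPM in whole tumours (-1.26), and Ndrg1 83.8, 92.4, 89.1, 214 and 156 against 23.2, 40.4, 60.0, 29.1 and 53.2 TPM (-1.58). Their groups did not overlap, and sorted replicate 4 was the highest for both. MHC class I genes had a median of 0.83 and type I interferon response genes of 0.71, with none past the threshold. B2m, the light chain of MHC class I, averaged 3184 ± 350.0 against 1847 ± 336 TPM.

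Many of the genes far higher in sorted cells were fast response genes. Of 42 that carry ordinary gene names, 21 belong to the immediate early, heat shock or NF-kB lists. Immediate early genes had 13 of 17 members far higher in sorted cells (0.475% of all genes were), 16 of 17 without overlap (7.33% of all genes), and a median of -3.48. Heat shock genes had 3 of 11 (median -1.43), and NF-kB targets had 5 of 11 on this side and 1 on the other (median -1.37). Handling, kit and cell content cannot be told apart for these genes. Without sorted replicates 1 and 2 the counts were 15, 3 and 5, with 3 NF-kB targets on the whole tumour side.

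Fosb, a partner of Jun in the AP-1 factor, measured 667, 272, 952, 1129 and 1416 TPM in sorted samples and 3.45, 4.52, 5.37, 5.75 and 5.62 TPM in whole tumours (-7.04, SE 0.43). Its ratio of means was 179, the highest of the list, and the groups lay far apart. The orphan nuclear receptor gene Nr4a1 measured 672, 253, 543, 775 and 920.0 TPM against 8.76, 11, 10.8, 13.5 and 14.3 TPM (-5.54, SE 0.34). Egr1, a zinc finger factor, measured 1728, 721, 1529, 1373 and 1747 TPM against 95.4, 61, 91.6, 81.8 and 94.5 TPM (-4.00, SE 0.26). In all these genes sorted replicate 2 was the lowest sorted sample and still well above every whole tumour. Fos (-4.05), Jun (-3.40) and Atf3 (-4.24), further subunits or partners of AP-1, had ratios of means of 17.5, 11.2 and 24.1. Dusp1, the phosphatase that turns MAP kinases off, measured 479, 202, 494, 630.0 and 649 against 14.8, 17.9, 16.7, 21.7 and 19.7 TPM (-4.58), and Zfp36, which speeds the decay of cytokine mRNAs, differed by -4.47. Egr2, Egr3, Klf6 and Fosl1 were the members short of the threshold, at -1.99, -1.29, -1.87 and -1.14.

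The inducible heat shock protein gene Hspa1b measured 529.6, 213, 542, 455 and 721 TPM in sorted samples and 4.16, 3.56, 4.89, 3.7 and 4.25 TPM in whole tumours (-6.49, SE 0.30). Hspa1a, a near-identical copy, measured 32.6, 12.2, 20.6, 26.6 and 24.9 against 0.172, 0.413, 0.9, 0.392 and 0.241 TPM (-4.05), and how reads divide between the copies is uncertain. Their co-chaperone Dnajb1 differed by -3.80. The chaperone genes Hsp90aa1, at 1442 ± 456 against 513 ± 38.8 TPM (-1.43), and the mitochondrial Hspd1, at -0.18, differed less. The small heat shock gene Hspb1 went the other way (1.36).

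Among NF-kB targets the neutrophil attractant Cxcl1 measured 456, 177, 873, 722 and 1010.5 TPM in sorted samples and 3.67, 5.3, 4.81, 5.28 and 4.59 TPM in whole tumours (-6.60, SE 0.46). Its neighbour Cxcl2 measured 80.3, 33.3, 116, 112 and 149 against 0.501, 1.74, 0.731, 1.12 and 0.958 TPM (-5.49, SE 0.40). Both were lowest in sorted replicate 2, followed by replicate 1. The feedback inhibitors Tnfaip3, Nfkbia and Nfkbiz differed by -2.99, -2.80 and -2.75. On the opposite side stood the adhesion molecule Icam1 (2.52), and the monocyte attractants Ccl2 (1.59) and Ccl7 (1.98) were below the threshold there. The interleukin gene Il6 was low throughout, at 6.5 ± 3.65 TPM in sorted samples and 1.66 ± 0.723 TPM in whole tumours (-1.37) with overlap.

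Sorted replicate 2 had the lowest sorted value for all 21 listed fast response genes that were far higher in sorted cells. Replicates 1 and 2 both held more macrophage, MHC class II and pan-leukocyte RNA than the other sorted samples, and replicate 1 had Fosb at 667 TPM and Egr1 at 1728 TPM. The part of leukocyte RNA in this order was not tested. Leaving out replicate 2 gave 61 genes far higher in sorted cells, against 57 with it.

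**Figure D4:**
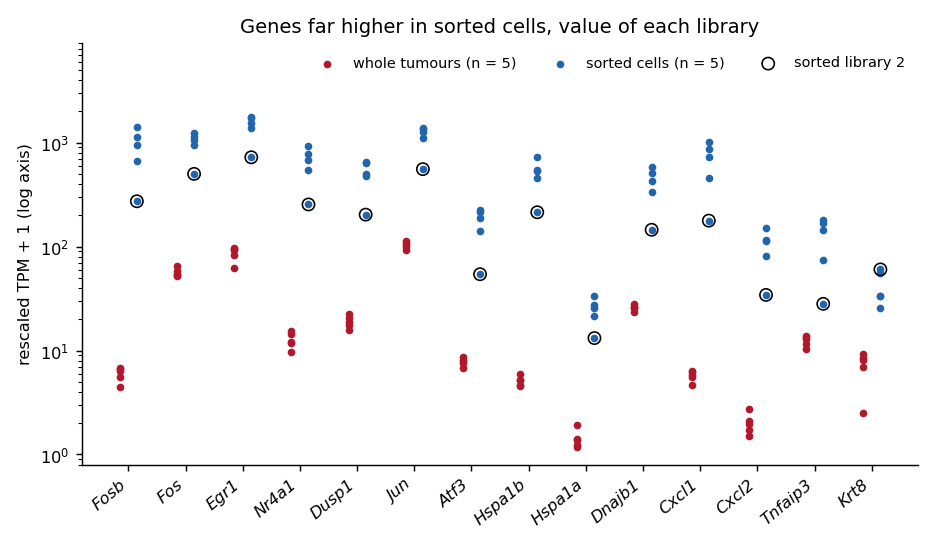
Rescaled TPM + 1 (log axis) of 14 genes in each of the 5 whole tumours (red) and 5 sorted samples (blue); the circle marks sorted library 2. The groups are apart for every gene, and library 2 is the lowest sorted sample for all except Krt8, where it is the highest at 59.3 TPM.

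Promoter stretches of 3 of these genes are shown because they hold letters known to bind the factors of these responses. For Cxcl1 and Cxcl2 the capitals mark a kappaB site, 71 and 97 bases before the start site, and for Dusp1 a cAMP response element (TGACGTCA), 143 bases before it. Each line gives 150 bases up to the start site, 5′ to 3′ on the gene's strand, from RefSeq on GRCm38.p6.
Cxcl1, chr5:90891095-90891244, plus strand: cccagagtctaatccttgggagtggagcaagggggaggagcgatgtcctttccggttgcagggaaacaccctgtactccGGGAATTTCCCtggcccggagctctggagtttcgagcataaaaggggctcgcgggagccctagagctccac
Cxcl2, chr5:90903749-90903898, plus strand: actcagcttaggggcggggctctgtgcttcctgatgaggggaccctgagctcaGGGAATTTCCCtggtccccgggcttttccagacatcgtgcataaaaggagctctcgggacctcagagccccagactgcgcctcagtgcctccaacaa
Dusp1, chr17:26508473-26508622, minus strand: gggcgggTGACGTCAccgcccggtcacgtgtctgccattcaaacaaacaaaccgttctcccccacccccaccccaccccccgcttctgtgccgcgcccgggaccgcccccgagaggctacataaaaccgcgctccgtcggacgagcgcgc
The kappaB match in the 2 chemokine genes has the same 11 letters. Searched on both strands of the same windows as above, a kappaB site stood in 5 of 7 NF-kB list genes with a window, in 8 of 32 genes far higher in sorted cells (25%), in 7.77% of those far higher in whole tumours, in 6.16% of the compared genes and in 5.14% of all genes. The cAMP response element stood in 5 of the 32 (15.6%), in 1.94% of those far higher in whole tumours, in 3.69% of the compared genes and in 2.03% of all genes. The heat shock element, given here by its name alone and looked for on both strands, stood in 3 of 9 heat shock genes, in 0 of the 32, in 0.501% of the compared genes and in 0.662% of all genes. The windows of Hspa1b, Hspa1a and Dnajb1, the heat shock genes far higher in sorted cells, held no match.

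Some genes far higher in sorted cells lie outside these lists or belong to others. The matricellular Ccn1, a YAP target, measured 394, 178, 980.4, 617 and 682 TPM against 86.3, 66.4, 59.9, 79.1 and 73.9 TPM (-2.75). Sorted replicate 2 was again the lowest sorted sample. The EGF receptor ligand gene Areg differed by -2.05. Of 18 growth factor and receptor genes 2 were far higher in whole tumours (2.82% of all genes were), Pdgfb (2.34), which recruits pericytes, and Igf1 (2.11). On that side 1 was counted under median-of-ratios scaling and 0 under quantile normalization. The nuclear RNA Neat1 was far higher in whole tumours too (96.9 ± 22.6 against 14.6 ± 1.84 TPM, 2.62), with sorted replicate 2 the highest sorted sample. Tgfbi, a TGF-beta response gene on the same list as Ccn1, was far higher in whole tumours (2.58). Dmp1 (-2.07), Sik1 (-2.23) and Pnrc1 (-2.05) were, with Krt8 and the predicted genes Gm28438 and Gm28625, the genes far higher in sorted cells at the subcutaneous site and at neither other site. Dmp1 and Pnrc1 lay just past the threshold. Missing it at another site does not show that the difference was absent there.

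Part of the far higher genes bear names of pseudogenes, predicted genes or clones, 52 on the whole tumour side and 15 on the sorted side. The tables do not use the same gene names throughout: after 17 calendar-date entries of the sorted table were left out, 100% of the sorted symbols and 93.1% of the whole tumour symbols are in GENCODE M21. Rps12l1, a copy of a ribosomal protein gene, measured 1806, 1599.9, 1614, 1365 and 1733 TPM in sorted samples and less than 0.001 TPM in every whole tumour, and Rpl15-ps3 was listed at 0 in every whole tumour and at 227, 137, 126, 160.3 and 194 TPM in sorted samples. Rpl30-ps9, Rpl14-ps1 and Rps18-ps3 were on the opposite side. Reads of such copies can be assigned to the parent gene or to another copy, so these values are uncertain and no level is read from them. Setting such names aside leaves 286 and 42 of the far higher genes. Rescaling and comparing the 10608 genes without such names, a choice made after seeing the data, gave 284 and 45, of which 284 and 42 were among the 338 and 57.

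The whole tumour table has 42315 entries that the sorted table does not list, and 663 of them averaged at least 5 TPM in the 5 whole tumours. All unlisted entries together held 2.87 to 3.21% of whole tumour TPM. For 209 the symbol is not in GENCODE M21, so a renamed gene cannot be told from an unexpressed one; the 12 highest unlisted entries without predicted or clone names, among them H2az1, Tle5 and H2-Ea, are of this kind. Chosen after their values were seen, the highest entries with an M21 symbol were the muscle genes Acta1 and Ckm (77.3 TPM), the T cell membrane gene Ms4a4b (68.4 TPM) and the B cell attracting chemokine Cxcl13 (66.1 TPM).

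The same comparison was made at the other 2 sites in their own libraries. At the peritoneal site 464 genes were far higher in whole tumours and 32 in sorted cells, and at the pleural site 472 and 68. Of the 338 subcutaneous genes of the whole tumour side 316 (93.5%) were found at the peritoneal site, where they made up 68.1% of the list, and 316 (93.5%) at the pleural site (66.9% of that list). Of the 57 subcutaneous genes of the sorted side 27 (47.4%) were found at the peritoneal site (84.4% of that list) and 49 (86.0%) at the pleural site (72.1%). No gene was far higher in opposite directions. All 3 sites shared 308 genes of the whole tumour side and 25 of the sorted side.

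Whether the whole minus sorted difference itself depended on site was tested with limma in one fit of all 31 libraries. What separates the tables for a gene by the same amount on the log2(TPM + 1) scale at every site cancels in such a contrast. Near or below 1 TPM the added 1 shrinks differences, so a constant factor between the tables need not cancel there. Fndc1, for example, averaged 0.219 and 0.296 TPM in peritoneal and pleural sorted samples. Against the peritoneal site 842 genes passed an adjusted p below 0.05, with a higher difference at the subcutaneous site for 220 (1.81%) and a lower one for 622 (5.13%). That split depends on scaling: median-of-ratios scaling called 645 higher and 611 lower, and quantile normalization 702 and 525. Against the pleural site 13 genes passed, all with a lower subcutaneous difference (0.107%; 0.0% higher), and 1 did with the mouse as a replicate block; with peritoneal mice numbered by library name in place of title, 25 did. Unadjusted, 1609 genes had a p below 0.05 there. Without sorted replicates 1 and 2 the counts were 815 and 2, and leaving out single libraries gave 392 to 1837 and 1 to 85. The contrasts share the subcutaneous libraries, so they are not independent. Of the genes with a lower contrast against the peritoneal site 30 were among the 338 far higher in whole tumours and 17 among the 57 far higher in sorted cells. The 338 and 57 were chosen on the same subcutaneous difference that enters the contrast. These overlaps are therefore not independent of that choice, and nothing is concluded from them.

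Thy1, a surface glycoprotein of T cells, fibroblasts and some tumour cells, had the lowest pleural contrast. Sorted subcutaneous cells had 76.6, 34.5, 37.7, 56.8 and 28.4 TPM and their whole tumours 143, 195, 169, 185 and 184 TPM. Sorted cells had 4.21 ± 3.45 TPM (mean ± SD, n = 5) at the peritoneal site and 2.81 ± 0.62 TPM (n = 5) at the pleural site, with 78 ± 12 (n = 5) and 74.9 ± 23.6 TPM (n = 6) in whole tumours. All 5 subcutaneous sorted samples were thus above the other sites' means, replicates 3 to 5 included. The contrast was -2.20 against the peritoneal site (SE 0.43, limma adjusted p = 0.00392) and -2.30 against the pleural site (SE 0.42, limma adjusted p = 0.0444). The pleural one had a limma adjusted p of 0.0739 with the replicate block and 0.0840 without sorted replicates 1 and 2, and ranged from 0.00833 to 0.0897 over 43 alternatives.

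The leukocyte tetraspanin gene Cd53 had 39.3, 23.7, 10.4, 13.5 and 9.99 TPM in subcutaneous sorted samples, 3.68 ± 0.779 TPM in peritoneal ones and 2.06 ± 0.866 TPM in pleural ones. Its contrasts were -1.31 and -2.15 (limma adjusted p = 0.0257 and 0.0114), and without sorted replicates 1 and 2 the peritoneal one had a limma adjusted p of 0.0736 (0.0149 to 0.0736 over the alternatives). The pleural one kept a limma adjusted p of 0.0132 without sorted replicates 1 and 2 and 0.0191 with the block (0.00227 to 0.0608 over the alternatives). The monocyte attractants Ccl2 and Ccl7 had pleural contrasts of -2.14 and -2.10 (limma adjusted p = 0.0489 for each). Ccl2 measured 40.6, 24.4, 9.29, 20.2 and 10.2 TPM in subcutaneous sorted samples, highest in replicate 1, and averaged 1.71 and 2.53 TPM in peritoneal and pleural ones. Without sorted replicates 1 and 2 the limma adjusted p was 0.163 for Ccl2 and 0.136 for Ccl7, and with the block 0.0744 for each (over all alternatives 0.019 to 0.163 and 0.00797 to 0.136). Fndc1, an extracellular protein gene, had contrasts of -1.59 and -2.10 (limma adjusted p = 0.0196 and 0.0444), and a pleural limma adjusted p of 0.0957 without those replicates and 0.0739 with the block (0.0102 to 0.0957 over the alternatives). Its peritoneal one was 0.0529 without those replicates (0.00237 to 0.0529). The other 8 pleural calls were Cadm4, Cnnm2, Colec12, Gem, Olfml3, Plxdc2, Slc16a3 and Spon1, with contrasts from -1.97 to -0.72.

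**Figure D5:**
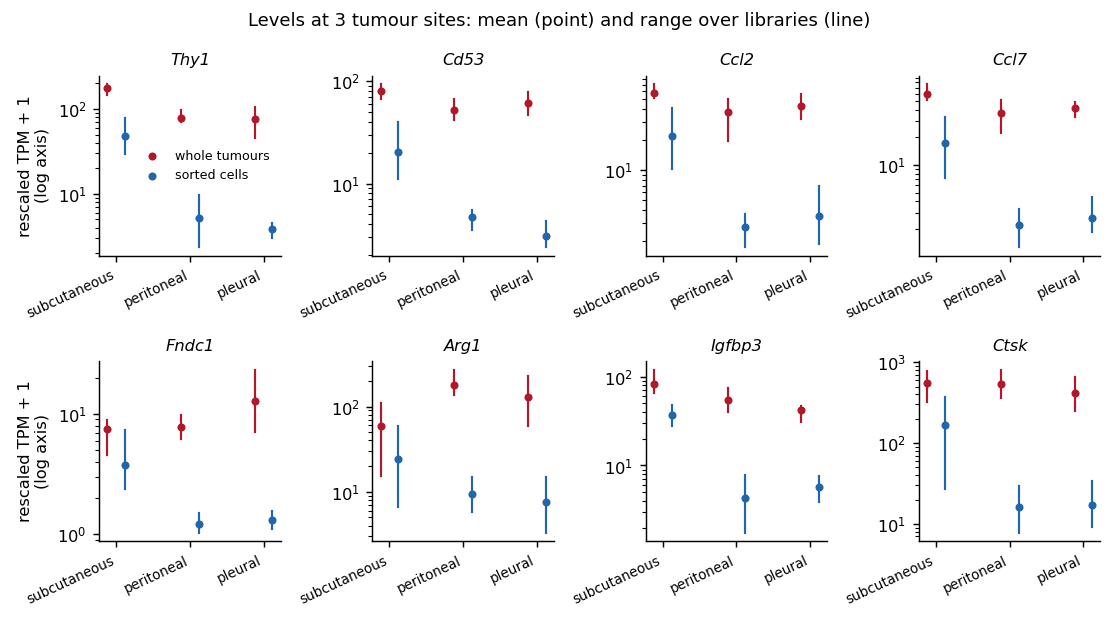
Rescaled TPM + 1 (log axis) of 8 genes called in a site contrast, in whole tumours (red) and sorted samples (blue) at the subcutaneous, peritoneal and pleural sites; points are means and lines the range over 5 libraries (6 for pleural whole tumours). For Thy1 and Igfbp3 the subcutaneous sorted samples lie above those of the other sites while whole tumours differ less.

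Several genes of the stroma and of myeloid cells had low contrasts against the peritoneal site. Igfbp3, which binds insulin-like growth factors, measured 42.9, 26.6, 28.4, 46.6 and 36.7 TPM in subcutaneous sorted samples and averaged 3.26 ± 2.51 TPM in peritoneal ones, with 81.3 ± 22.5 and 53.1 ± 12.8 TPM in whole tumours. Its contrast was -2.70 (SE 0.39, limma adjusted p = 0.000262). The macrophage arginase Arg1 (-2.88) and the bone and macrophage protease Ctsk (-2.69) had limma adjusted p of 0.0222 and 0.0335, which became 0.0844 and 0.125 without sorted replicates 1 and 2 (over all alternatives 0.0129 to 0.0844 and 0.0149 to 0.125). Ighm had a contrast of -2.82 (limma adjusted p = 0.0295, 0.112 without those replicates, and 0.0158 to 0.112 over the alternatives), and peritoneal whole tumours averaged 276 TPM of it. The mitochondrial transcript mt-Nd3 had a contrast of -2.93 (limma adjusted p = 0.000344), and peritoneal sorted cells averaged 149 TPM of it, far from the 1055 TPM of subcutaneous ones.

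By list, 7 of 9 endothelial genes had a lower subcutaneous contrast against the peritoneal site (5.13% of all genes did), among them Pecam1 at -1.06 (limma adjusted p = 0.0409, 0.0125 to 0.103 over the alternatives). Endothelial genes remained at 8.13% of the whole tumour level in peritoneal sorted samples. Of 12 cholesterol synthesis and uptake genes 9 were lower. Of 13 mitochondrial genome transcripts 8 were lower. Fast response genes contributed 4 of 17 immediate early, 3 of 11 heat shock and 4 of 11 NF-kB genes, all lower: Fosb averaged 220.2 TPM in peritoneal sorted cells (-1.64, limma adjusted p = 0.0195, 0.000211 to 0.0568 over the alternatives) and Tnfaip3 30.1 TPM (-2.23, limma adjusted p = 0.0231, 0.000763 to 0.0733). Krt8 averaged 28.9 TPM in peritoneal whole tumours, beside 31.9 TPM in their sorted cells, a contrast of -2.41 (limma adjusted p = 0.0452, but 0.062 with the replicate block, 0.0697 without sorted replicates 1 and 2, and 0.0066 to 0.0892 over the alternatives). None of the 18 macrophage and none of the 7 MHC class II genes passed in either contrast. Their median contrasts were still below 0. Against the peritoneal and pleural sites they were -0.89 and -1.26 for macrophage genes and -0.97 and -1.50 for MHC class II genes. The lack of calls therefore does not show equal differences between sites.

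A higher subcutaneous contrast against the peritoneal site was found for 1 of 2 muscle genes tested, Mylpf, and for some other genes. Mylpf had a contrast of 3.49 against the peritoneal site (limma adjusted p = 0.0107), where whole tumours averaged 4.69 TPM. Rarres2, which encodes the leukocyte attractant chemerin, measured 224, 492, 335, 357 and 479.6 TPM in subcutaneous whole tumours and 149.9, 66.7, 68.9, 128 and 59.7 TPM in their sorted cells, and averaged 52.9 and 33.3 TPM at the peritoneal site, a contrast of 1.38 (limma adjusted p = 0.0203). Crabp1, which binds retinoic acid inside cells, was close to 0 at the peritoneal site in both kinds of sample, and measured 48.3, 56.7, 19.9, 17 and 30.6 TPM in subcutaneous whole tumours and 18.1, 6.61, 10.4, 18.3 and 4.1 TPM in their sorted cells. Its contrast of 1.43 (limma adjusted p = 0.0295) had a limma adjusted p of 0.103 under quantile normalization and of 0.0144 to 0.366 over the alternatives.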

How the data were processed

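RNA was sequenced as 50 bp single-end reads on a HiSeq instrument, per the labels' protocols, and quantified with kallisto on GRCm39, per the submitters' processing notes. Its version and the annotation were not given in the sources used here. In separate tables, the authors deposited TPM for whole tumours and for sorted cells, and the sorted table lists only genes averaging at least 1 TPM over its 15 libraries. Depth is unknown, so only the number of libraries sets the precision. Both tables were rescaled to 1000000 over 12141 shared genes, and genes at 1 TPM or more in at least 5 of the 10 libraries were compared on log2(TPM + 1). Site contrasts used limma 3.58.1 with trend in R 4.3.3 with Benjamini-Hochberg adjustment at 0.05. The p-values measure the spread between libraries of a group, in which mouse and handling cannot be told apart. The main fit held no term for the mouse. Scripts were tested on simulated data. Labels name the same mouse for both kinds of sample, but the deviations of same-numbered libraries correlated by -0.135 to 0.0107, and the fit with the mouse as a block had a within-mouse correlation of -0.0725. At the peritoneal site titles and library names number 3 whole tumours differently; titles were used, and numbering by library name, an alternative chosen after seeing the data, gave 0.0114. Genes, lists and tests were chosen with earlier results of these data known. Named genes were the 12 highest differences in each direction at 20 TPM or more, up to 3 far higher members of each of 47 lists, a set of standard markers, the 5 highest and 5 lowest called genes of each site contrast, and the 12 highest unlisted genes. Some members of these sets are not reported here. Others are named as members of a list or said to be chosen after their values were seen.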

Additional observations from a re-analysis of the deposited data

Results flagged for a closer look

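In the groups of 5 subcutaneous libraries, 11 of 204 pairs of a named gene and a group (5.39%) held a library whose gap to its nearest neighbour, divided by the range of the group, passed the critical value of 0.71; chance flags about 1 in 20. Sorted replicate 2 was the library apart on the low side for Dusp1 (0.739), Jun (0.748) and Egr1 (0.728), and on the high side for the nuclear RNA Neat1 (0.8). Sorted replicate 1 stood apart on the high side for Pi16 (0.771), and sorted replicate 3 on the low side for Rps18-ps3 (0.802), a ribosomal pseudogene whose reads may come from other copies. Among whole tumours, replicate 1 stood apart on the low side for Ccl5 (0.822), Plvap (0.728) and Krt8 (0.792). Whole tumour replicate 2 did so for B2m (0.711) and replicate 3 for Fndc1 (0.779).

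The whole minus sorted difference of the following named genes differed between the subcutaneous and peritoneal sites in the limma contrast. Fast response and related genes had a lower subcutaneous contrast (log2), at -1.64 for Fosb, -2.56 for Hspa1a, -2.23 for Tnfaip3, -2.19 for Ccl2 and -2.12 for Ccl7. At the subcutaneous site Fosb, Hspa1a and Tnfaip3 were higher in sorted cells, whereas Ccl2 and Ccl7 were higher in whole tumours. Vessel and pericyte genes did as well, at -1.11 for Eng, -1.31 for Plvap, -1.06 for Pecam1, -1.22 for Pdgfb and -1.76 for Acta2. Genes of leukocytes and stroma with a lower contrast were Ighm (-2.82), Arg1 (-2.88), Ctsk (-2.69), Cd53 (-1.31), Thy1 (-2.2), Igf1 (-1.63), Igfbp3 (-2.7) and Fndc1 (-1.59). Krt8 (-2.41) and mt-Nd3 (-2.93) had a lower contrast too. Higher contrasts were 3.49 for Mylpf, 5.06 for the small nucleolar RNA Snora57, 3.46 for Zfp969, 1.43 for Crabp1, 1.38 for Rarres2 and 0.717 for the uncertain Rpl15-ps3. Snora57 had a median of 0 TPM in subcutaneous sorted samples and ranged from 0 to 44.7 TPM in peritoneal whole tumours. Zfp969 averaged 0.294 TPM in peritoneal whole tumours and 5.33 TPM in peritoneal sorted samples. Its call was lost in 19 of 43 alternatives (limma adjusted p 0.0141 to 0.114).

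Without subcutaneous sorted replicates 1 and 2 the calls of Ighm, Arg1, Ctsk, Cd53, Eng, Pdgfb, Fndc1, Krt8 and Zfp969 were lost.

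Against the pleural site 5 named genes differed, with contrasts of -2.14 for Ccl2, -2.3 for Thy1, -2.15 for Cd53, -2.1 for Fndc1 and -2.1 for Ccl7. Sorted replicates 1 and 2 of the subcutaneous site, which hold more leukocyte RNA than the other sorted samples, entered all of these contrasts. The part of that RNA was not tested beyond the values without those replicates.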

How the results depend on the processing

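Requiring a difference of at least 1 gave 948 genes far higher in whole tumours and 191 in sorted cells, and requiring 3 gave 182 and 30. The other scalings, filters and the pseudocount of 0.1 gave 276 to 398 and 52 to 84, leaving out 1 library gave 321 to 374 and 47 to 61, and the replicate block 339 and 58. Leaving out predicted, clone and pseudogene names, chosen after seeing the data, gave 284 and 45. The 68 named genes counted as far higher were chosen for a large difference, so a change of direction was unlikely from the start. Of these, 0 changed direction under any alternative run. Of the 32 others, 4 did: Dcn and Nf2 (both -0.09) and Myc (-0.21) under median-of-ratios scaling, and mt-Co1 (0.29) under quantile normalization. Of 2052 values in all, 41 moved by more than 1 SD.

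The peritoneal contrast had 842 calls, 452 when only the 2 sites were fitted, 143 at an adjusted p below 0.01, and 392 to 1837 without 1 library. Counts past 1.5 times came without peritoneal sorted replicates 1 (1837), 2 (392), 4 (1408) and 5 (456), subcutaneous sorted replicates 1 (433) and 5 (530), subcutaneous whole replicate 2 (395), and peritoneal whole replicates 2 (510) and 7 (542).

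The pleural contrast had 13 calls, 29 with a pseudocount of 0.1, 26 with TPM as deposited, 26 with median-of-ratios scaling, 1 with the replicate block by title, 25 with the block by library name, 194 with arrayWeights, 2 without subcutaneous sorted replicates 1 and 2, 2 when only the 2 sites were fitted, and 0 at a limma adjusted p below 0.01 (1609 at an unadjusted p below 0.05). Without 1 library it ranged from 1 to 85, and leaving out any 1 of the 5 whole or 5 sorted subcutaneous libraries moved it past 1.5 times. The replicate block by title removed the pleural calls of Thy1, Ccl2, Ccl7 and Fndc1 and the peritoneal call of Krt8, and changed no other call among those of named genes in either contrast. The block by library name, chosen after seeing the data, removed none of these and gave 864 peritoneal calls. Of 1419 values for named genes called in a site contrast, 1211 kept their call, 208 lost it and 0 reversed. Leaving out subcutaneous sorted replicate 1 alone lost 14 of 31 calls of named genes. The cause was not tested in any of these. TPM gives no depth, so no limit from counting can be stated, and 5 libraries a group set the precision.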
